A study of Mus musculus with 10 samples.

Results

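The 10 genes followed here belong to the TGF-beta pathway and were read in cultured mouse keratinocytes. They are the ligand genes Tgfb1, Tgfb2 and Tgfb3, the receptor genes Tgfbr1, Tgfbr2 and Tgfbr3, the latent ligand binding gene Ltbp1, the inhibitor and repressor genes Smad7 and Skil, and Tgfbi, named for its induction by the ligand. They were read through every probe set annotated to 1 of these genes alone, which gave 26 of the 45101 probe sets of the array and at least 1 for each of the 10 genes. Each probe set combines several short oligonucleotides that match the same transcript, and its value here is a log2 signal, so that a difference of 1 is a doubling. The arrays compared 5 samples labelled KO (Sgpp1-/-, numbered 8, 9, 10, 21 and 23) with 5 labelled WT (Sgpp1+/+, numbered 1 to 5). All came from keratinocytes taken into primary culture, which form the epidermis, and kept for 3 to 4 days in EMEM with 0.05 mM calcium and 8% fetal calf serum. Sgpp1 encodes an enzyme that dephosphorylates the signalling lipid sphingosine-1-phosphate. The labels give neither the age or number of animals nor the part of Sgpp1 that was disrupted. The array numbers of the 2 groups do not overlap, so number and genotype cannot be told apart. Whether each sample had its own animal or culture is not stated, and p-values therefore measure the spread between these samples, which may be technical in part.

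TGF-beta is secreted in a latent complex, tethered to the matrix by latent TGF-beta binding proteins, and has to be released before it acts. The free ligand binds the type II receptor, which phosphorylates the type I receptor, and this passes the signal to Smad proteins that enter the nucleus. Smad7 and the Skil product SnoN, both made in response to the signal, act against it. In the epidermis the ligand is known for halting the division of keratinocytes and for a part in wound repair.

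The targeted gene was read on 3 probe sets, and on each of them every KO array lay above every WT array (two-sided exact permutation p = 0.00794, which is the minimum for this number of arrays). The brightest averaged 8.82 ± 0.24 in KO and 7.67 ± 0.84 in WT (log2 signal, SD, n = 5 each). By limma with adjustment over all probe sets 0 of the 3 passed (adjusted p = 0.156, 0.191 and 0.198), and over all probe sets of the array 3.14% did not overlap between the groups. This runs against a lower transcript level in KO, but a probe set outside the disrupted part checks nothing, so KO and WT below mean the arrays labelled so, and every direction rests on the labels. The keratinocyte markers, Krt5 and Krt14 among them, averaged 11.05 to 11.35 over the KO arrays and 10.94 to 11.13 over the WT arrays, and 0 of 10 passed the test. Of 14 differentiation markers 13 rose in KO, with means of 10.35 to 10.76 over the KO arrays and 8.45 to 9.27 over the WT arrays, and their part in the results below was not tested. RNA of other cells was also present: 11 fibroblast markers averaged 5.64 to 7.53 in KO and 5.31 to 9.03 in WT, with WT 3, WT 4 and KO 23 highest, and 8 melanocyte markers averaged 7.62 to 9.18 in KO and 6.30 to 9.35 in WT. The 8 endothelial markers averaged 3.23 to 3.65 in KO and 3.43 to 3.89 in WT, and the 9 myeloid markers 4.13 to 5.203 in KO and 4.21 to 5.50 in WT. Of these 4 lists 0 genes passed the test. Signal of Y-linked genes was present on 4 arrays, KO 10, KO 23, WT 3 and WT 5, so neither group came from 1 animal alone. Arrays alike in this signal may still share an animal. WT 1 stood farthest from the others, with a mean correlation of 0.955 with them.

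No probe set of the 10 genes passed the test between KO and WT. Of the 26 probe sets, 0 were called higher and 0 lower in KO by limma with Benjamini-Hochberg adjustment over the 45037 probe sets tested, where 1.13% of all probe sets were called higher and 0.142% lower. Without adjustment 6 of the 26 had a p under 0.05, or 23.1%, against 10.1% of all probe sets. They were 1450923_at, 1423250_a_at and 1450922_a_at of Tgfb2, 1420893_a_at of Tgfbr1, 1426397_at of Tgfbr2 and 1415871_at of Tgfbi. Probe sets of the same gene are not independent, so these shares do not count separate genes. The KO and WT arrays overlapped on each of the 26, while over all probe sets 3.14% did not overlap. The KO minus WT difference was negative on 17 of the 26 with a median of -0.16, and negative on 53.1% of all probe sets with a median of -0.02. The WT arrays were the more scattered: the SD was larger in WT than in KO on 20 of the 26, or 76.9%, against 59.4% of all probe sets. In such bulk cultures, fewer cells of a type and less RNA per cell cannot be told apart.

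**Figure D1:**
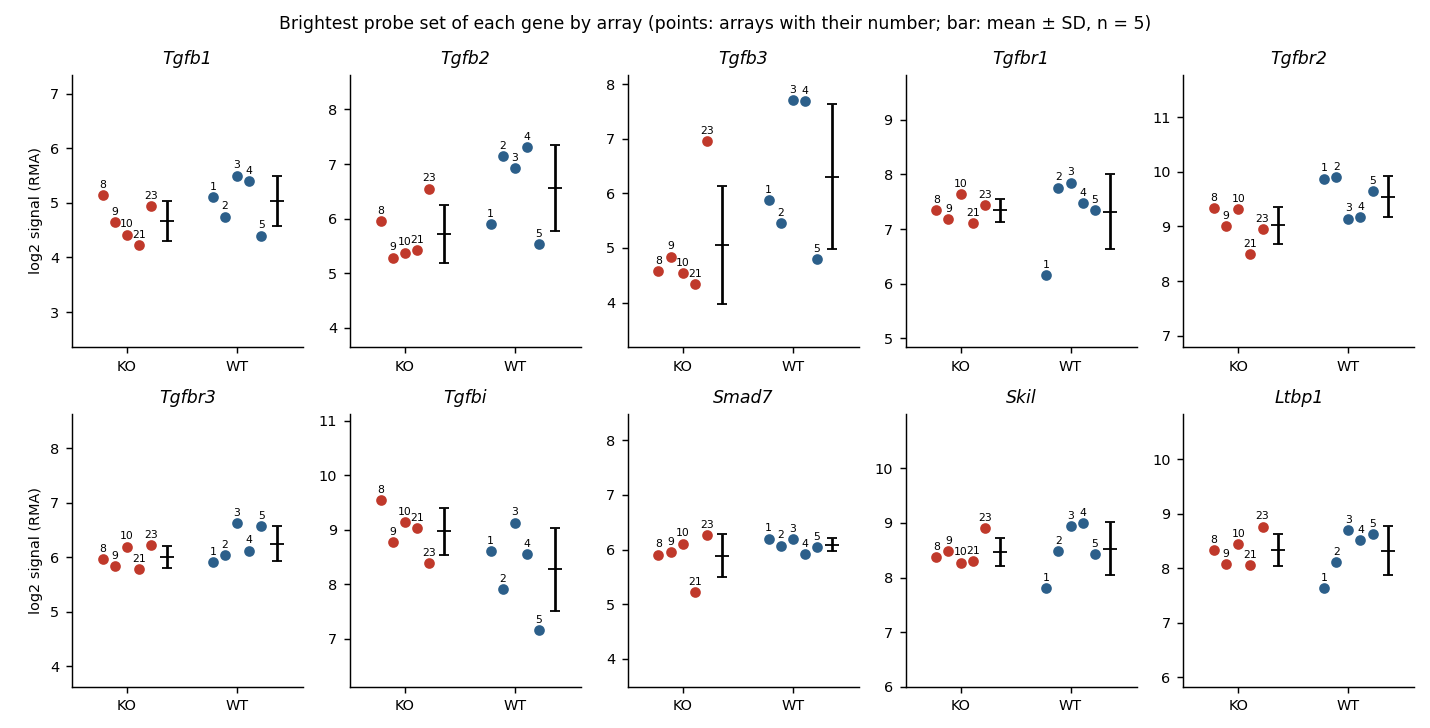
Log2 signal of the brightest probe set of each of the 10 genes on each array, KO left and WT right, with the array number at each point and a bar for mean ± SD (n = 5 each). The 2 groups overlap in every panel, and WT 5 lies within the KO range for Tgfb1, Tgfb2 and Tgfb3.

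**Figure D2:**
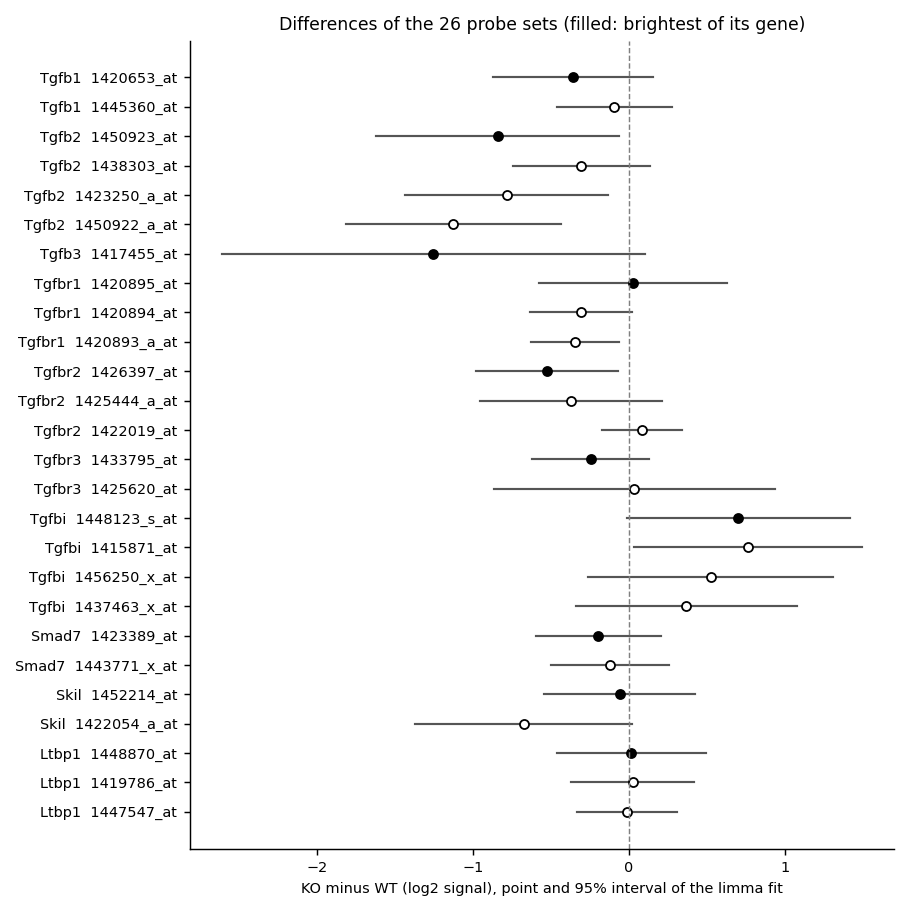
KO minus WT difference in log2 signal of the 26 probe sets with its 95% interval, filled where the probe set is the brightest of its gene. All 4 Tgfb2 points lie below 0 and all 4 Tgfbi points above it, and 0 of the 26 pass after adjustment over all probe sets.

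Among the ligand genes, Tgfb2 had the smallest adjusted p of the 26 probe sets, and its 4 probe sets all had a negative difference. Tgfb2 encodes the isoform best known from development and from epithelial to mesenchymal change. Its probe set 1450922_a_at read 4.18, 3.93, 3.53, 3.94 and 4.14 on KO 8, 9, 10, 21 and 23, against 5.27, 5.29, 5.32, 5.77 and 3.71 on WT 1 to 5. WT 1 to WT 4 lay well above the highest KO array, and WT 5 lay inside the KO range. The difference was -1.13 (SE 0.32), 2.18-fold lower in KO, with an adjusted p of 0.146. KO 10 and WT 5 read within the 1.58 to 3.84 that probe sets of Y-linked genes gave on the 6 arrays without Y-linked signal, a range in which RMA compresses differences. Without WT 5 the difference was -1.47 with an adjusted p of 0.00212, and a second probe set, 1423250_a_at, also passed, at -1.07 with 0.0365. No other left-out array brought a probe set of the 10 genes past the threshold. When limma weighted the arrays by how well each followed its group, 1450922_a_at passed as well (-1.37, adjusted p = 0.0217). So did 1450923_at (-1.29, 0.0364), while 1423250_a_at did not (-0.97, 0.0568).

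On the remaining Tgfb2 probe sets the arrays were less well separated. The brightest, 1450923_at, read 5.95, 5.28, 5.37, 5.42 and 6.55 in KO, against 5.90, 7.15, 6.92, 7.30 and 5.53 in WT, a difference of -0.84 (SE 0.36, adjusted p = 0.431). WT 2, WT 3 and WT 4 were above every KO array, and WT 1 and WT 5 were among them. The difference was -0.79 for 1423250_a_at (adjusted p = 0.343), with 4.06 to 4.66 in KO and 4.06 to 6.08 in WT. For 1438303_at it was -0.31 (0.731), with 4.85 to 5.21 in KO and 4.68 to 5.70 in WT. WT 5 was the lowest WT array on all 4 probe sets.

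Tgfb3, the isoform linked to scarless repair and palate closure, has 1 probe set on the array, which read 4.58, 4.84, 4.53, 4.34 and 6.96 on KO 8, 9, 10, 21 and 23, against 5.88, 5.45, 7.71, 7.69 and 4.79 on WT 1 to 5. The 3 highest arrays were WT 3, WT 4 and KO 23, and the other 7 spanned 4.34 to 5.88. The difference was -1.25 (SE 0.62, 95% interval -2.61 to 0.10, adjusted p = 0.553). The same 3 arrays were the highest in the fibroblast markers, whose mean was 5.64, 6.77, 6.23, 6.11 and 7.53 in KO, against 5.51, 6.04, 9.03, 8.68 and 5.31 in WT. Of those markers, Postn, encoding the matrix protein periostin, read 7.34 on KO 23, 10.22 on WT 3 and 10.12 on WT 4. On any other array Postn read at most 4.89. Lum, encoding lumican, read 2.41 to 2.76 in KO and 2.43 to 2.92 in WT. These Lum values lie within the range of the absent Y-linked genes, in which RMA compresses differences. The part of fibroblast RNA in the Tgfb3 values was not tested. Without these 3 arrays the Tgfb3 difference was -0.80 with an adjusted p of 0.306, and that of Tgfb2 on 1450922_a_at was -0.86 with 0.491. With array weights the Tgfb3 probe set did not pass in the fit over all probe sets (-1.98, adjusted p = 0.0729). In the weighted fit over genes Tgfb3 passed at -2.07 (adjusted p = 0.0373). The weights were 1.78 for WT 3, 2.22 for WT 4 and 0.740 for KO 23.

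**Figure D3:**
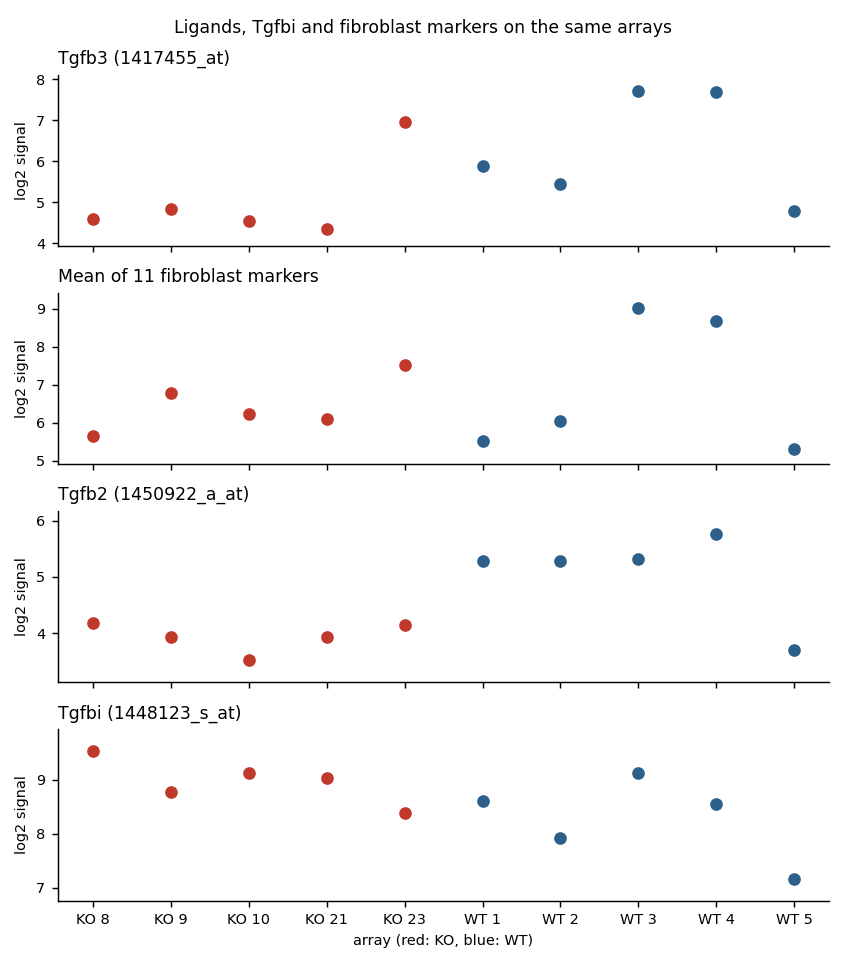
Log2 signal of Tgfb3, the mean of 11 fibroblast markers, Tgfb2 and Tgfbi on the 10 arrays, KO in red and WT in blue. Tgfb3 and the fibroblast markers are highest on WT 3, WT 4 and KO 23. Tgfb2, drawn on its dimmest probe set 1450922_a_at, is between 5.27 and 5.77 on WT 1 to WT 4. There it is between 3.53 and 4.18 on the KO arrays and WT 5. On the brightest Tgfb2 probe set, 1450923_at, not drawn, KO 23 read 6.55, the highest of KO, and WT 1 read 5.90.

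Tgfb1, the isoform made by most cell types, read 5.14, 4.64, 4.42, 4.22 and 4.94 in KO, against 5.11, 4.75, 5.50, 5.40 and 4.40 in WT on its brighter probe set. The groups were interleaved, and the difference was -0.36 (SE 0.24, 95% interval -0.87 to 0.16, adjusted p = 0.733). The other probe set, 1445360_at, averaged 3.89 ± 0.17 in KO and 3.98 ± 0.32 in WT (SD, n = 5 each). It lay close to the level of the absent Y-linked genes.

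The sequences upstream of 3 of these genes are shown because Tgfb2 and Tgfbr2 had, on the brightest probe sets, the smallest p of the ligand and receptor genes, and Tgfb1 is the ligand gene to set beside Tgfb2. Each is the 250 bases before the RefSeq start site, 5′ to 3′ on the gene's strand (GRCm38.p6), at chr1:186705990-186706239 (minus strand) for Tgfb2, chr7:25686752-25687001 (plus) for Tgfb1 and chr9:116175364-116175613 (minus) for Tgfbr2. Capitals mark TATAAA on the gene's strand, and GGGCGG and CAGAC on either strand. Tgfb2 holds 1 TATAAA, 31 bases before the start, 2 CAGAC, the core letters that Smad proteins bind, and 0 GGGCGG. Tgfb1 holds 5 GGGCGG, the GC box, and neither of the others, and Tgfbr2 holds 1 CAGAC. Of all 32851 such windows, 7.59% hold TATAAA, 32.7% GGGCGG and 42.2% CAGAC. Neither TGACGTCA, the cAMP response element, nor TGANTCA, the AP-1 site, was in any of the 3 on either strand, and they are in 1.55% and 6.75% of the windows.
Tgfb2: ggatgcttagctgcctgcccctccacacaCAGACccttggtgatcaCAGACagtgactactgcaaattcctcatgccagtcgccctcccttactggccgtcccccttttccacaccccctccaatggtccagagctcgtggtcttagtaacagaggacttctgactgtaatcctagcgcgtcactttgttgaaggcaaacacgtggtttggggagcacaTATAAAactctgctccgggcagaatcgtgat
Tgfb1: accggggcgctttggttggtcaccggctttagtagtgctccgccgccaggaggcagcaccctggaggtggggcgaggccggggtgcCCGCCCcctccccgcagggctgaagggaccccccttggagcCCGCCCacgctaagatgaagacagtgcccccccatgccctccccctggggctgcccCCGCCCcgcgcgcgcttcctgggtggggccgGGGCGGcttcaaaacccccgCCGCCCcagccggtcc
Tgfbr2: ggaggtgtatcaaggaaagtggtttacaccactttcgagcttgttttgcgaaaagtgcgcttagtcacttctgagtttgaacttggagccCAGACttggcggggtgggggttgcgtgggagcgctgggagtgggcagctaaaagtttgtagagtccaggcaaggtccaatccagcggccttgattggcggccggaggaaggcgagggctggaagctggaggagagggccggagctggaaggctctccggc

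Tgfbr2, encoding the type II receptor that binds the ligand first, read 9.34, 9.004, 9.32, 8.50 and 8.95 on KO 8, 9, 10, 21 and 23, against 9.88, 9.90, 9.14, 9.17 and 9.65 on WT 1 to 5 on its brightest probe set. WT 1, WT 2 and WT 5 lay above every KO array, and WT 3 and WT 4 lay among them. The difference was -0.53 (SE 0.21), 1.44-fold lower in KO, with an adjusted p of 0.379. The second probe set, 1425444_a_at, read 7.36, 6.76, 7.03, 6.87 and 6.81 in KO, against 8.14, 7.87, 6.60, 7.05 and 7.05 in WT, with a difference of -0.37 (adjusted p = 0.770). WT 1, WT 2 and KO 8 were its highest arrays. These 3 were also the arrays highest in the early response gene Fos, at 8.995 on KO 8, 8.45 on WT 1 and 8.85 on WT 2, against at most 7.44 elsewhere, and in the poly-A RNA spiked in during labelling. Without them the differences of the 2 Tgfbr2 probe sets were -0.38 and -0.03. The third Tgfbr2 probe set averaged 2.18 in KO and 2.09 in WT, within the range of the absent Y-linked genes.

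The 5 genes that tracked the brightest Tgfbr2 probe set most closely over the 10 arrays, among 6007 genes with a mean above 7, were Rfk and Zfp503 (Pearson r = 0.98 each), Rab11fip5, Mrps24 and Tmem248 (0.96 each). All 5 had a negative difference between KO and WT, from -0.56 to -0.26, and 0 of them passed the test. They were picked for tracking a probe set that itself differed by -0.53, so the shared sign follows from the choice. The 10 arrays share 1 normalisation and hold both groups, so these correlations describe the arrays only.

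Tgfbr1 encodes the type I receptor kinase. Its probe set 1420893_a_at read 6.80, 6.37, 6.53, 6.59 and 6.53 in KO, against 6.89, 7.13, 6.93, 6.83 and 6.76 in WT. Only KO 8 and WT 5 crossed, and the difference was -0.35 (SE 0.13), 1.27-fold lower in KO, with an adjusted p of 0.333. The probe set 1420894_at differed by -0.31 (adjusted p = 0.540), with 6.91 to 7.48 in KO and 7.27 to 7.73 in WT. The brightest, 1420895_at, read 7.35, 7.18, 7.64, 7.10 and 7.44 in KO, against 6.16, 7.76, 7.85, 7.48 and 7.35 in WT, a difference of 0.02. WT 1 lay far below every other array there, and without it the difference was -0.27 (adjusted p = 0.573).

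Tgfbr3 encodes betaglycan, a co-receptor that presents the ligand to the type II receptor. It read 5.97, 5.84, 6.19, 5.79 and 6.23 in KO, against 5.91, 6.03, 6.62, 6.12 and 6.57 in WT on its brighter probe set. WT 3 and WT 5 were above every KO array and the rest were interleaved, with a difference of -0.25 (95% interval -0.62 to 0.13, adjusted p = 0.762). The other, 1425620_at, differed by 0.03 with a wide interval of -0.86 to 0.93. Its lowest array was WT 1 at 4.03, against 5.17 to 6.15 in KO and 5.62 to 6.64 on the other WT arrays, and without WT 1 the difference was -0.39.

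Ltbp1, whose product holds the latent ligand in the matrix, had the smallest difference of the 10 genes on their brightest probe sets. It read 8.34, 8.07, 8.45, 8.05 and 8.76 in KO, against 7.63, 8.12, 8.70, 8.52 and 8.63 in WT on its brightest probe set. The KO arrays lay inside the WT range apart from KO 23, which was just above it. The difference was 0.01 (SE 0.22), with a 95% interval of -0.46 to 0.49. The other probe sets differed by 0.02 and -0.01, and the dimmest averaged 2.18 in KO and 2.20 in WT.

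Tgfbi encodes a secreted matrix protein that binds collagens and integrins, and it was the gene whose probe sets all had a positive difference. The brightest, 1448123_s_at, read 9.54, 8.78, 9.13, 9.03 and 8.39 on KO 8, 9, 10, 21 and 23, against 8.60, 7.92, 9.13, 8.55 and 7.17 on WT 1 to 5. KO 8 was highest and WT 5 lowest, and WT 3 equalled KO 10. The difference was 0.70 (SE 0.33), 1.62-fold higher in KO, with an adjusted p of 0.510. The other 3 differed by 0.76, 0.52 and 0.37, with adjusted p of 0.461, 0.753 and 0.843, and WT 5 was the lowest array on each of them. Without WT 5 the difference of the brightest was 0.42. Without the 3 arrays highest in fibroblast markers it was 1.22 with an adjusted p of 0.179.

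Smad7, encoding the inhibitory Smad that blocks the type I receptor, read 5.91, 5.95, 6.11, 5.22 and 6.26 in KO, against 6.20, 6.07, 6.20, 5.91 and 6.04 in WT. Apart from KO 21, the lowest array, the groups covered the same range, and the difference was -0.20 (95% interval -0.60 to 0.20, adjusted p = 0.858). The second probe set differed by -0.12 (adjusted p = 0.929). Skil read 8.37, 8.49, 8.27, 8.30 and 8.90 in KO, against 7.81, 8.48, 8.95, 8.99 and 8.42 in WT on its brighter probe set, a difference of -0.06 (adjusted p = 0.980). The other Skil probe set, 1422054_a_at, read 7.87, 7.30, 7.62, 7.26 and 7.07 in KO, against 9.36, 8.15, 7.94, 7.79 and 7.26 in WT, a difference of -0.68 (adjusted p = 0.513). The 2 Skil probe sets disagreed most on WT 1, which was the highest array on this one and the lowest on the other. Without WT 1, WT 2 and KO 8 the difference on 1422054_a_at was -0.35.

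Other genes of the pathway were counted in 4 lists that together held 109 measured genes, 3 of them (Id1, Smad6 and Smad9) in more than 1 list, each gene read on its brightest probe set. By limma adjusted over 18193 genes, 1 of the 109 rose and 6 fell in KO. Of all genes 2.30% were called higher and 0.346% lower. The lists were chosen with earlier results of these data known, so this contrast and the next are not independent tests. The difference was negative for 68.8% of the 109 with a median of -0.13, and for 52.4% of all genes with a median of -0.01. On the same scale 0 of the 10 ligand, receptor and feedback genes passed, with a median of -0.22.

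The calls fell in the genes that store and release the ligand, in its targets and in the activin branch. Of 21 measured genes of latent storage and activation 3 fell and 0 rose. Mmp9, a matrix protease that can free the latent ligand, read 5.23, 4.87, 5.44, 5.01 and 5.56 in KO, against 6.98, 6.44, 7.27, 7.16 and 6.08 in WT, with no overlap, and fell by 1.57 on the log2 scale (SE 0.23, adjusted p = 0.00271). Plaur, the receptor that places urokinase at the cell surface, averaged 6.32 ± 0.32 in KO and 7.60 ± 0.55 in WT and fell by 1.28 (adjusted p = 0.0143). Thbs1 encodes thrombospondin-1, which binds and activates latent TGF-beta. It read 9.79, 9.81, 9.91, 9.36 and 10.42 in KO, against 10.83, 10.33, 10.93, 10.91 and 10.61 in WT, where only KO 23 and WT 2 crossed, and fell by 0.86 (SE 0.19, adjusted p = 0.0319). The list's median difference was -0.20, and 18 of the 21 differences were negative.

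Of 36 measured target genes 2 fell and 0 rose, with a median of -0.41 and 25 negative differences. Lox, Timp1 and Tagln were highest on WT 3 and WT 4, as were the fibroblast markers, and Ets1 and Timp3 on WT 1 and WT 2. Differences were also negative for 81.8% of the fibroblast, 87.5% of the endothelial and 77.8% of the myeloid markers. The share was 20% for keratinocyte and 0% for melanocyte markers. The endothelial markers averaged only 3.23 to 3.89 per array, near the 1.58 to 3.84 of the absent Y-linked genes. Some myeloid markers, such as Itgam and Cd207, lay within that range too. At that level the sign of a difference may be noise. The part of other cells' RNA in the list medians was not tested. Plod2, encoding a lysyl hydroxylase for collagen crosslinks, averaged 6.72 ± 0.41 in KO and 7.85 ± 0.29 in WT and fell by 1.14 (adjusted p = 0.00957), with KO 23 and WT 2 almost meeting at 7.34. Tnc, encoding the wound matrix protein tenascin-C, averaged 10.19 ± 0.41 in KO and 11.20 ± 0.43 in WT and fell by 1.01 (adjusted p = 0.0405). Of 28 genes of the activin and BMP branch 1 rose and 1 fell. Fst, whose product follistatin traps activin, averaged 9.78 ± 0.59 in KO and 11.01 ± 0.43 in WT and fell by 1.23 (adjusted p = 0.0365). Acvr2a, an activin type II receptor gene, averaged 9.92 ± 0.10 in KO and 9.35 ± 0.23 in WT and rose by 0.57 (SE 0.14, adjusted p = 0.0500, before rounding just under the threshold).

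Of 27 genes for Smads, their inhibitors and co-receptors 0 passed in either direction, with a median of -0.09. The smallest adjusted p were those of Fkbp1a, encoding a protein that holds the type I receptor inactive, at -0.68 (0.0933), and of Cd109, encoding a co-receptor that dampens the signal in keratinocytes, at 0.57 (0.183).

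Of the 7 called genes, 3 (Mmp9, Plaur and Plod2) also passed when the same probe sets were adjusted over all 45037. When arrays were left out 1 at a time, Mmp9 and Plod2 passed in all 10 fits, and Plaur passed in all but the one without KO 9 (adjusted p = 0.0514). Thbs1 and Tnc passed only without KO 23 or WT 2, Fst only without KO 8, KO 23 or WT 3, and Acvr2a only without WT 3, with adjusted p of up to 0.144 in the other fits. Without the 3 arrays highest in fibroblast markers Thbs1, Tnc and Acvr2a did not pass (adjusted p = 0.0721, 0.0877 and 0.101), and 2 of those markers, Col1a1 and Dcn, are themselves in the lists. Without WT 1, WT 2 and KO 8, the adjusted p was 0.0813 for Plaur and for Thbs1, 0.0979 for Fst and 0.122 for Acvr2a. With the mean of all probe sets of a gene in place of the brightest, Thbs1, Fst and Acvr2a did not pass (adjusted p = 0.0578, 0.0648 and 0.376), and with Y-linked signal as a covariate Acvr2a did not (0.0626). The second Acvr2a probe set differed by 0.23, with an adjusted p of 0.893 over all probe sets.

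**Figure D4:**
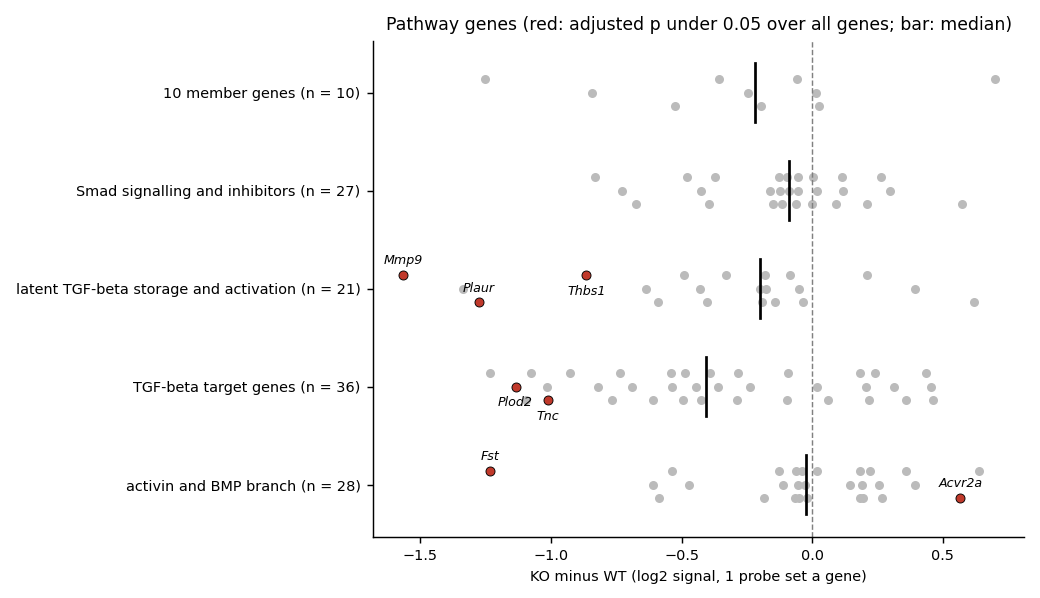
KO minus WT difference in log2 signal of the 10 ligand, receptor and feedback genes and of 4 lists of pathway genes, 1 probe set a gene, with called genes in red and a bar at each median. The called genes are Mmp9, Plaur, Thbs1, Plod2, Tnc and Fst on the left of 0 and Acvr2a on the right, and 0 of the 10 genes in the top row are called.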

How the data were processed

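Per the submitters' processing notes, the deposited values were made with RMA, which corrects the background, equalises the arrays and combines the probes of a set. They are log2 values as deposited by the authors, 1 per probe set and array of an Affymetrix mouse genome chip, and the RMA version is not given in the sources used here. RMA compresses differences near the background and cannot show a shift common to most genes. The values were used as deposited, ran from 1.13 to 14.92, and filled 10 columns, of which 0 were left out. Total RNA was extracted with Trizol and 6 µg was labelled, per the labels' protocols. Precision is limited by the number of arrays, 5 per group.

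Of 45101 probe sets, 64 controls were left out. Genes came from the platform annotation, with symbols updated for 34741 of 34945 single-gene probe sets through a RefSeq table (GRCm38.p6). KO minus WT was fitted, two-sided, by lmFit and eBayes of limma 3.58.1 under R 4.3.3 over 45037 probe sets. It was fitted again over 18193 genes, each read on its probe set with the highest mean. P-values were adjusted by Benjamini-Hochberg with a threshold of 0.05, and SE and 95% intervals are those of the fit. The fit was tested on simulated data with the means and spread of the real arrays. Over probe sets it recovered 6% of log2 differences of 0.5, 54% of those of 1 and 82% of those of 1.5. Over genes these shares were 6%, 68% and 92%. Tgfb1, Tgfb2, Tgfbr1, Tgfbr2, Tgfbi and Ltbp1, 6 of the 10 genes, had a usable upstream sequence in the RefSeq table. A filter by chromosome was applied to the entries of the 10 genes, but not to the windows that gave the motif shares.

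The genes, lists and tests were chosen with earlier results of these data known. Named beyond the 10 genes were the called genes of each list, up to 6, or the 2 with the smallest adjusted p where fewer than 2 were called, the 5 closest to the member gene with the smallest adjusted p, and Sgpp1. Postn, Lum and Fos were chosen after their values were seen. Alternatives left out arrays, weighted them, changed the variance prior, the normalization, the filter on dim probe sets and the reading of a gene, or added covariates.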

Additional observations from a re-analysis of the deposited data

Results flagged for a closer look

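Among 76 groups of 5 arrays examined, 5 held an array whose gap to the next was a larger share of the group's range than Dixon's 95% critical value, and chance flags about 1 in 20 groups. For Tgfb2 on 1450922_a_at, WT 5 read 3.71 against 5.27 to 5.77 on the other WT arrays. For Tgfb3, KO 23 read 6.96 against 4.34 to 4.84 on the other KO arrays. The dim Ltbp1 probe set 1447547_at read 2.65 on WT 1 against 2.02 to 2.12 on the other WT arrays. Plod2 read 7.34 on WT 2 against 7.87 to 8.05 on the other WT arrays. The dimmest Sgpp1 probe set read 3.76 on WT 5 against 4.27 to 4.38 on the other WT arrays.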

How the results depend on the processing

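With array weights 2 of the 26 probe sets and 2 of the 10 genes were called. Over all features, 1242 probe sets were then called higher and 654 lower, 877 genes higher and 561 lower, and 21 of the 109 pathway genes were called, Fkbp1a among them (-0.67, adjusted p = 0.0220). The weights ran from 0.245 for WT 1 to 2.31 for KO 9. The sample titles also hold an array index, 1 to 5 in WT and 6 to 10 in KO, which differs from the array number for KO 21 and KO 23. With this index as a covariate each of these counts was 0. The index follows the groups, so this fit cannot tell an effect of the index from one of genotype. Without WT 3, WT 4 and KO 23, an alternative chosen after seeing the data, 254 probe sets and 266 genes were called higher and 4 pathway genes were called. Without WT 1, WT 2 and KO 8, 28 probe sets were called lower and 4 pathway genes were called. Leaving out 1 array at a time gave 0 to 2 of the 26 probe sets and 0 of the 10 genes, 290 to 509 probe sets higher and 11 to 93 lower, 264 to 419 genes higher and 13 to 107 lower, and 2 to 8 pathway genes. The other alternatives, which used a variance trend, quantile normalisation, a filter on dim probe sets, Y-linked signal as a covariate, single-gene probe sets or gene means, called 0 of the 26 probe sets and 0 of the 10 genes and kept the other counts within 1.5 times, but gene means ended the calls of Thbs1, Fst and Acvr2a, and the Y-linked covariate that of Acvr2a.

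Some differences changed sign. In the fits that left out 1 array they ran from -0.27 to 0.16 for Tgfbr1 1420895_at, -0.39 to 0.26 for Tgfbr3 1425620_at, -0.24 to 0.055 for Skil 1452214_at, and -0.16 to 0.11, -0.068 to 0.11 and -0.060 to 0.10 for the Ltbp1 probe sets from brightest to dimmest. Without WT 1, WT 2 and KO 8 they were -0.22 for Tgfbr1 1420895_at, -0.42 for Tgfbr3 1425620_at, -0.28 for Ltbp1 1448870_at and 0.066 for Ltbp1 1447547_at. With array weights the same 4 were -0.20, -0.28, -0.22 and 0.066. With the array index as a covariate they were -0.70, -1.50, -0.61 and 0.26. In that fit Tgfb2 1438303_at was at 0.39 (-0.31 without the covariate) and Tgfbr2 1425444_a_at at 0.31 (-0.37). Tgfbr2 1422019_at was then at -0.0079 (0.08) and Skil 1422054_a_at at 0.22 (-0.68). Without WT 3, WT 4 and KO 23 Tgfb1 1445360_at was at 0.020 and Skil 1452214_at at 0.12. With quantile normalisation Ltbp1 1448870_at was at -0.014 and 1447547_at at 0.0083. The cause was not tested. No paired analysis was possible because the 2 groups share no replicate number.

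With 5 arrays a group, an adjusted p that misses the threshold does not show that a gene did not differ. RMA values carry no detection call, and 2 of the 26 probe sets lie at the level of absent genes.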
